A study of Rattus norvegicus with 12 samples.

Results

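Cells obtain cholesterol by making it from acetyl-CoA and by taking it up from lipoproteins, and 8 genes of this system were followed here in rat aortic smooth muscle cells stimulated through thrombin receptors. The members were listed by name as Insig1, Srebf2, Hmgcs1, Idi1, Fdps, Sqle, Msmo1 and Dhcr7, and a member was measured by the probe sets whose annotation gives its symbol alone. This rule found 7 of the 8 genes with 9 probe sets, among 9906 genes tested on 18625 probe sets. Hmgcs1, which encodes the cytosolic HMG-CoA synthase, had no such probe set and was not analysed here. All 7 genes found passed the filter on low signal, with mean signals over the 12 arrays from 529.3 (Dhcr7) to 4757.6 (Fdps) on the linear scale of the array. The listed genes cover synthesis and its control, and none of them encodes a lipoprotein receptor, so the group is described below as cholesterol synthesis genes and their regulators.

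Srebf2 encodes SREBP-2, a transcription factor that is made as a membrane protein of the endoplasmic reticulum. When the membrane is poor in cholesterol, the escort protein SCAP carries SREBP-2 to the Golgi, where proteases cut it, and the freed part raises transcription of the genes for cholesterol synthesis. INSIG1 holds SCAP and SREBP-2 back in the endoplasmic reticulum when sterols are plentiful, and Insig1 is itself a target of SREBP-2. HMGCS1, IDI1 and FDPS act on the way from acetyl-CoA to farnesyl diphosphate, SQLE adds the oxygen that later becomes the hydroxyl group of cholesterol, MSMO1 removes methyl groups from the sterol ring, and DHCR7 carries out the last reduction of one of the closing branches. In the vessel wall, smooth muscle cells loaded with cholesterol are one source of the foam cells of atherosclerosis.

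The cells were primary cultures from the aorta of newborn rats, kept overnight in serum-free medium with albumin, so that all 6 groups share this starvation. Each of 3 experiments had 2 arrays of unstimulated (basal) cells and 2 of cells stimulated for 120 min. The first used 2 U/ml of thrombin, the clotting protease that activates its receptors by cutting them. The second used 25 µM of TRAP, a peptide that activates such a receptor without cutting it. The third used the same dose of TRAP on cells treated for 24 h with 200 ng/ml of PTX, pertussis toxin, which uncouples receptors from Gi proteins. The design asks what these receptors change in transcription and which part of it needs Gi. Whether the basal cells of the PTX experiment had received PTX is not stated, nor is it stated that replicates were separate cultures, so the p-values cover only the variation among these samples.

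Median signals ranged from 39.7 to 53.6 per array, and r between replicate arrays from 0.983 to 0.991. Above the filter were 9 of 9 smooth muscle and 6 of 7 fibroblast markers. The same held for 1 of 7 endothelial, 2 of 7 leukocyte, 1 of 5 Schwann cell and 0 of 6 adipocyte markers. Passing the filter does not mean a high signal. Acta2 averaged 7220.5 and Tagln 5561.3 over the arrays, while Myh11 at 50.7 and Des at 28.85 lay within or below the range of the array medians. The 8 arrays of the TRAP experiments were parted into 2 sets that cross the labels. One set holds the arrays with signals above 100 for both Saa3 and Lcn2. The sets therefore differ in Saa3 by construction, while Mki67 was not used to part them. The unstimulated arrays of the TRAP experiment, with TRAP replicate 2 and with replicate 1 of TRAP after PTX, had signals of 15.9 to 22.8 for the acute-phase gene Saa3 and 900.3 to 1095.7 for the cell division marker Mki67. The unstimulated arrays of the PTX experiment, with TRAP replicate 1 and with replicate 2 of TRAP after PTX, had 222.5 to 420.9 for Saa3 and 515.4 to 607.5 for Mki67. Of the 7 cholesterol genes only Msmo1 had signals that did not overlap between these sets, 3803.2 to 4170.8 in the former and 3346.2 to 3752.9 in the latter. How many of all probe sets did not overlap between the sets was not counted, so this number has nothing to be set against. In 2 stimulated arrays, replicate 1 of TRAP and of TRAP after PTX, the set was not that of the matching basal arrays, and calls of the responses that were lost without these crossing arrays are named with their values. The labels were kept as given. Whether the labels of these 2 arrays were exchanged was not tested, and if they were, the TRAP response and the response after PTX and TRAP would each be made of other stimulated arrays.

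The upstream sequences are shown here for Insig1, Msmo1 and Dhcr7. By the brightest probe sets, Insig1 and Msmo1 were the members called higher in at least 1 of the 3 responses. Dhcr7 was the member that fell in the average of the responses. RefSeq gave a start site for 7 of the 8 members, and an entry for Sqle was missing. In the 250 bases before the start, both strands were searched for the CCAAT box (CCAAT), the E-box (CACGTG), the GC box (GGGCGG) and the letters TCACNCCA, which resemble the sterol regulatory element of textbook SREBP targets. Capitals mark every match, on either strand, and the GC box read on the other strand appears as CCGCCC and the CCAAT box as ATTGG. The sequences run 5′ to 3′ on the strand of the gene (RefSeq, build GRCr8), for Insig1 chr4:8057770-8058019 on the minus strand, for Msmo1 chr16:29746863-29747112 on the plus strand and for Dhcr7 chr1:208444184-208444433 on the plus strand.
Insig1: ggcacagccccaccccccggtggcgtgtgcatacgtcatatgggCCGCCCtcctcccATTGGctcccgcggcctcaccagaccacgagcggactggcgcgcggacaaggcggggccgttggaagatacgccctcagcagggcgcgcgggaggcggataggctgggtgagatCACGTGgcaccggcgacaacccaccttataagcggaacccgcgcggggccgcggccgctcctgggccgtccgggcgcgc
Msmo1: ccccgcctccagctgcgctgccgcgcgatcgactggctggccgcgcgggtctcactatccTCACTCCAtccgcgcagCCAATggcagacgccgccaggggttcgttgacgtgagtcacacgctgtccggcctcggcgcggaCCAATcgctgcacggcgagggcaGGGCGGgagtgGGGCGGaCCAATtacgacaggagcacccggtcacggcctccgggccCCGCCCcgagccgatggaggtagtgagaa
Dhcr7: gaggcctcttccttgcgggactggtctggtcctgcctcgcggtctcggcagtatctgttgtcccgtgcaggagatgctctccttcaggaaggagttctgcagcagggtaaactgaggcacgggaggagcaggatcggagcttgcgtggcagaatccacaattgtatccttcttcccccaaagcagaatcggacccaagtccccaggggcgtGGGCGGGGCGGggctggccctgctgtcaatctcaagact

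The CCAAT box was found before 6 of these 7 genes, all but Dhcr7, and before 34% of the 33469 rat promoters in the same table. Msmo1 held 3 copies of it, and Hmgcs1, Idi1 and Fdps held 2 each. The GC box was found before 6 of 7, all but Idi1, against 30.5% of promoters, and its 2 copies before Dhcr7 overlap by 1 base. The letters TCACNCCA occurred before Msmo1 (as TCACTCCA) and Srebf2 (as TCACCCCA), against 3.24% of promoters. The E-box CACGTG occurred before Insig1 alone, 79 bases before the start, against 5.59% of promoters. A match is a description of the letters and shows no binding.

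Insig1, the sterol-sensing brake of the pathway, was higher after every stimulus. Its signal was 3173.6 and 3111.9 on the basal arrays of the thrombin experiment and 4776.4 and 4115.4 after thrombin. In the TRAP experiment it was 1953.1 and 2079.7 at rest and 2344.9 and 2670.2 after TRAP. In the PTX experiment it was 1906.2 and 1733.7 at rest and 2753 and 2620.3 after PTX and TRAP. The stimulated arrays lay above their own basal arrays in all 3 experiments, which was the case for 3.87% of the probe sets tested, and no other of the 7 genes showed this. The arrays measure bulk RNA, so a change in the number of cells that carry a transcript and a change in its amount per cell cannot be told apart.

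In the limma fit, with Benjamini-Hochberg adjustment over all 18625 probe sets and a threshold of 0.05, Insig1 rose after thrombin by 0.49 ± 0.10 (SE, log2 of the signal plus 16, n = 2 against 2), a fold of 1.41 (adjusted p = 0.01259). It rose after PTX and TRAP by 0.56 ± 0.10, a fold of 1.47 (adjusted p = 0.01016). The difference after TRAP alone was 0.31 ± 0.10 and did not pass the test (adjusted p = 0.1255). Averaged over the 3 experiments Insig1 rose by 0.45 ± 0.06 (adjusted p = 0.0001963), a call that held in 27 of 27 alternative fits. The thrombin call was lost without basal thrombin replicate 1 or without thrombin replicate 1, without the intensity trend, with the compared arrays alone and with each array centred on its median (adjusted p = 0.06144), and the PTX call without basal replicate 2 or stimulated replicate 1 of the PTX experiment (adjusted p = 0.08961 for the latter). Against all 6 basal arrays the difference after PTX and TRAP was 0.25 (adjusted p = 0.6826) and that after thrombin 0.97. Without the 2 crossing arrays the rise after PTX and TRAP was 0.52 (adjusted p = 0.09282) and the average rise 0.47 (adjusted p = 0.001433).

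**Figure D1:**
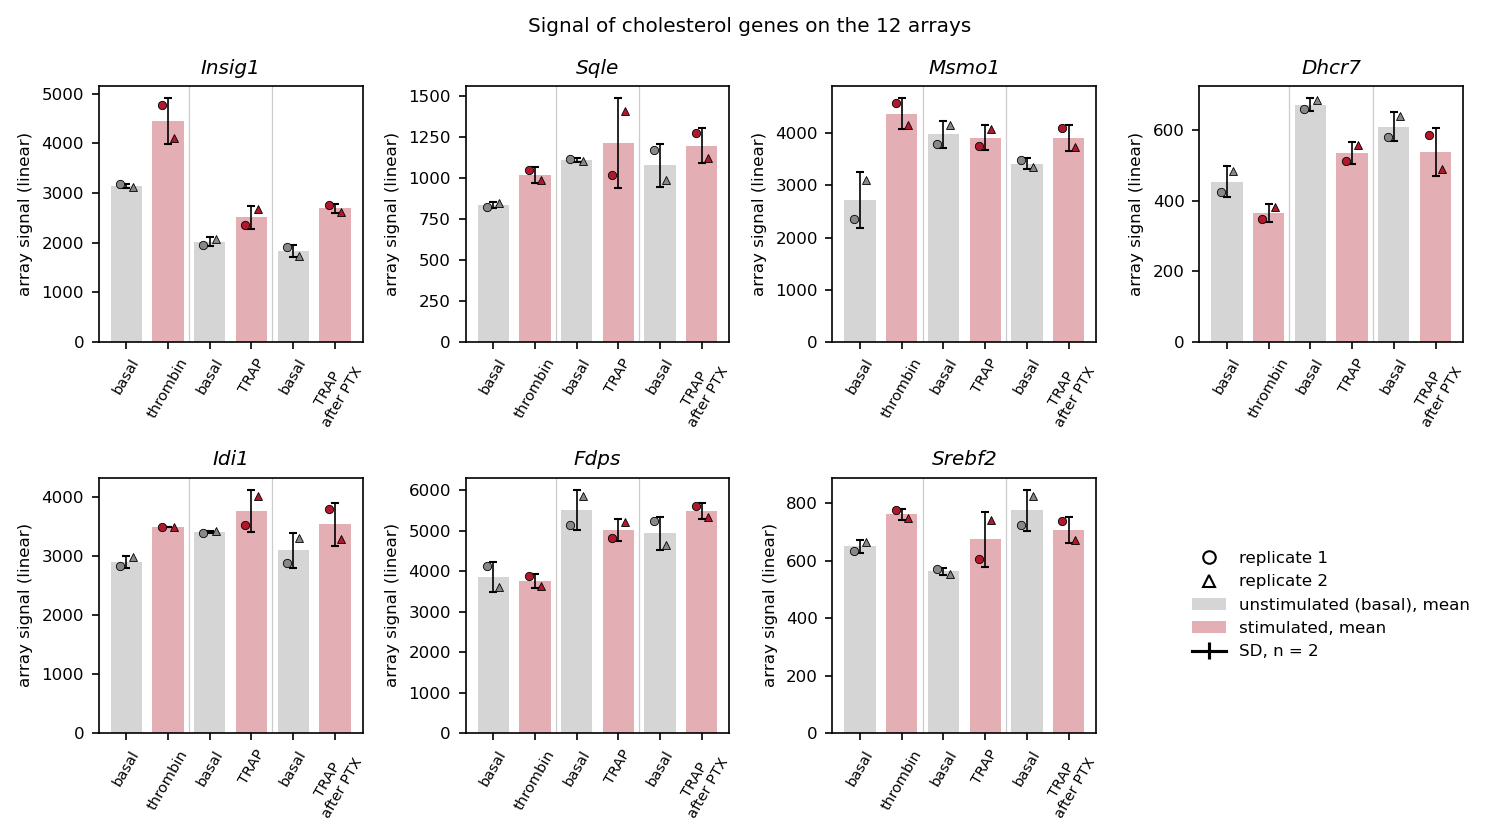
Linear array signal of the 7 cholesterol genes in the 6 groups, with a point for each array, bars for the group means and error bars for the SD (n = 2). Insig1 was higher on both stimulated arrays than on both basal arrays in each of the 3 experiments, and Msmo1 rose from 2347.3 and 3105.3 to 4590.5 and 4167.8 with thrombin.

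Msmo1, the sterol methyl oxidase, was called with thrombin and not with TRAP. Its signal was 2347.3 and 3105.3 on the basal arrays of the thrombin experiment and 4590.5 and 4167.8 after thrombin, a rise of 0.69 ± 0.12 or 1.62-fold (adjusted p = 0.004762). In the TRAP experiment it was 3803.2 and 4170.8 at rest and 3752.9 and 4089.9 after TRAP, a difference of -0.02 ± 0.12 (adjusted p = 0.9589). In the PTX experiment it was 3493.2 and 3346.2 at rest and 4095.2 and 3737.8 after PTX and TRAP, a difference of 0.19 ± 0.12 (adjusted p = 0.4503). The groups were apart after thrombin, overlapped after TRAP and were apart by a small margin after PTX and TRAP. The thrombin rise started from the lowest resting level of the 3 experiments, and after thrombin the signal overlapped that of the unstimulated cells of the TRAP experiment.

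The test of the difference between the thrombin and the TRAP response of Msmo1 gave 0.72 ± 0.17, with a 95% interval from 0.34 to 1.09, and did not pass after adjustment (unadjusted p = 0.001085, adjusted p = 0.1026). It passed after quantile normalization (adjusted p = 0.03758) and without basal thrombin replicate 2 (adjusted p = 0.01873), the array with the higher of both resting signals. The thrombin call itself was lost without thrombin replicate 1 and against all 6 basal arrays (0.39, adjusted p = 0.2031). In the average of the 3 experiments Msmo1 rose by 0.29 ± 0.07 (adjusted p = 0.0162), or 0.29 without the 2 crossing arrays, which then did not pass (adjusted p = 0.06352).

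After thrombin the stimulated arrays lay wholly above the basal arrays for 5 of the 7 genes and wholly below for 1, against 18.8% and 28.6% of all probe sets. With TRAP they lay above for 3 and below for 1, against 19.2% and 29.4%, and after PTX and TRAP above for 3 and below for 0, against 18.1% and 27.1%. In the thrombin test, 2 of the 7 genes rose and 0 fell, against 4.74% of all probe sets called, 2.63% higher and 2.1% lower. In the TRAP response 0 of 7 were called, against 3.9% of all probe sets (1.84% higher), although Insig1, Dhcr7 and Srebf2 had unadjusted p of 0.009019, 0.01395 and 0.04219. After PTX and TRAP 1 of 7 rose, against 2.71% called, 1.68% higher and 1.03% lower. In the average of the 3 responses 3 rose and 1 fell, against 13.2% called, 5.55% higher and 7.62% lower. The median log2 difference of the 7 genes was 0.27 with thrombin, 0.11 with TRAP, 0.15 after PTX and TRAP and 0.18 in the average, where that of all probe sets was -0.04 in each of the 4 comparisons.

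Idi1, the isomerase that supplies dimethylallyl diphosphate, had the smallest of the average rises that passed the test. The signal of its brighter probe set was 2824.8 and 2972.9 at rest and 3492.3 and 3487.5 after thrombin. It was 3395.1 and 3416.1 at rest and 3516.5 and 4017.3 after TRAP, and 2888 and 3297.3 at rest and 3790 and 3277.8 after PTX and TRAP. The stimulated arrays lay above the basal arrays with thrombin and TRAP and overlapped them in the PTX experiment. The average rise was 0.20 ± 0.06 (adjusted p = 0.04264), and it passed the test in 13 of 27 alternative fits, not among them the fit without the 2 crossing arrays (adjusted p = 0.09179). The second, dimmer probe set of Idi1, with a mean signal of 1178.8, differed in its calls. It rose by 0.59 ± 0.16 after thrombin (adjusted p = 0.04884), where the brighter one gave 0.27 ± 0.10 (adjusted p = 0.1863), and its average of 0.28 ± 0.09 did not pass (adjusted p = 0.05661).

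Dhcr7, the reductase at the end of the pathway, moved the other way. Its signal was 423.5 and 485 at rest and 347.9 and 382.7 after thrombin, and 659.8 and 685.7 at rest and 514 and 556.7 after TRAP. In the PTX experiment it was 581.2 and 639.5 at rest and 586.7 and 489 after PTX and TRAP. The stimulated arrays were below the basal arrays with thrombin and with TRAP, and overlapped them in the PTX experiment. No single response passed the test, with -0.30 ± 0.11 for thrombin (adjusted p = 0.1717), -0.32 ± 0.11 for TRAP (adjusted p = 0.1591) and -0.18 ± 0.11 after PTX and TRAP (adjusted p = 0.4461). Averaged, Dhcr7 fell by 0.27 ± 0.07 on the log2 scale (adjusted p = 0.01612), a call lost without thrombin replicate 1, when each array was centred on its median (-0.20, adjusted p = 0.1347) and when it was centred on the median of the probe sets tested (-0.21, adjusted p = 0.05289). Without the 2 crossing arrays it was -0.29 (adjusted p = 0.02643).

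**Figure D2:**
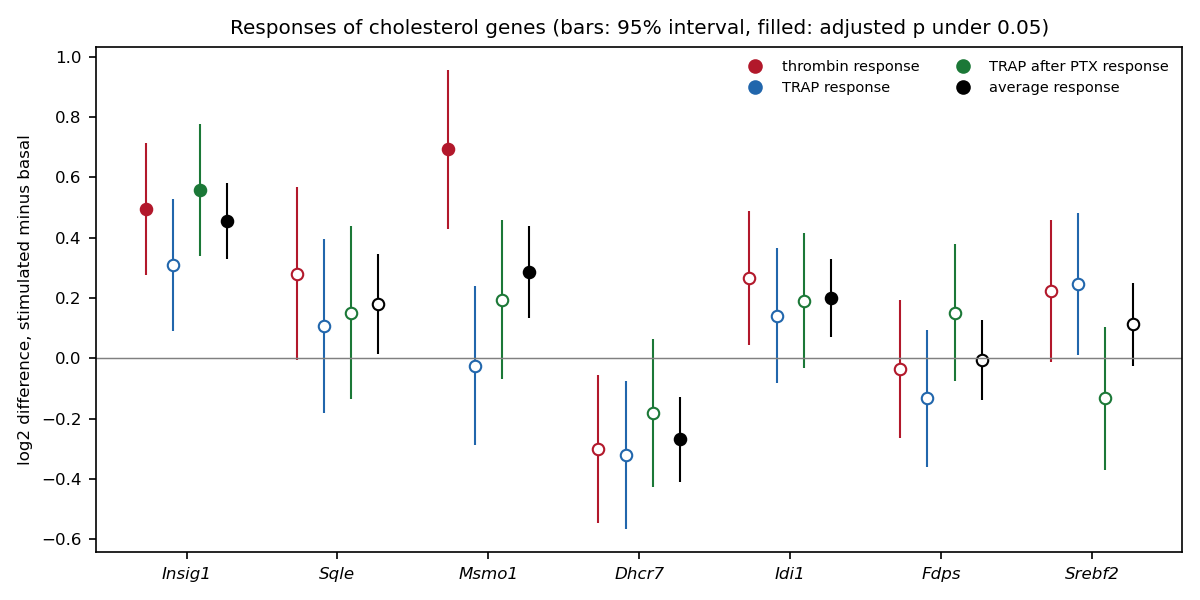
Differences between stimulated and basal cells (log2 of the signal plus 16) for the 7 genes in each experiment and in the average, with 95% intervals and filled points for an adjusted p under 0.05. Insig1 lay above 0 in all 3 experiments, Msmo1 stood out with thrombin at 0.69, and the Dhcr7 values lay between -0.32 and -0.18.

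Sqle, the squalene epoxidase, was not called in any response. Its signal was 821.8 and 846.3 at rest and 1050 and 985.1 after thrombin, 1117.6 and 1101.3 at rest and 1018.3 and 1406.4 after TRAP, and 1170.3 and 984.3 at rest and 1271.1 and 1122.4 after PTX and TRAP. The groups were apart with thrombin alone. Its average difference was 0.18 ± 0.08 (adjusted p = 0.1482), and it passed without TRAP replicate 1 (0.26, adjusted p = 0.02285), the TRAP array with the lower Sqle signal.

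Fdps, the farnesyl diphosphate synthase, gave the flattest average of the 7 genes. Its signal was 4119.3 and 3597.7 at rest and 3874.9 and 3640.9 after thrombin, 5150.9 and 5863.9 at rest and 4820.8 and 5211 after TRAP, and 5226.1 and 4638.2 at rest and 5613.3 and 5334.5 after PTX and TRAP. The groups overlapped with thrombin and TRAP. The average difference was -0.01 ± 0.06, with a 95% interval from -0.14 to 0.13.

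Srebf2, which encodes the transcription factor itself, had signals of 632.8 and 666.4 at rest and 774.6 and 746.9 after thrombin, and of 572.3 and 554.8 at rest and 607 and 742.7 after TRAP. In the PTX experiment it was at 725.3 and 826.1 at rest and at 737.8 and 673.2 after PTX and TRAP. The stimulated arrays were above the basal arrays in the experiments without PTX and overlapped them in the one with it. No response passed, with 0.22 ± 0.11 for thrombin (adjusted p = 0.3128), 0.25 ± 0.11 for TRAP (adjusted p = 0.28) and -0.13 ± 0.11 after PTX and TRAP (adjusted p = 0.5803).

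For the effect of PTX on the TRAP response, the comparison that addresses Gi, 0 of the 7 genes were called, against 0.129% of all probe sets. Srebf2 had the largest of these differences, -0.38 ± 0.16 with a 95% interval from -0.71 to -0.04 (unadjusted p = 0.02921, adjusted p = 0.5212). It was -0.59 without the 2 crossing arrays (adjusted p = 0.3658). The interval for Insig1 ran from -0.06 to 0.56 around 0.25 and that for Dhcr7 from -0.21 to 0.49 around 0.14, so differences of these sizes were not resolved with 2 arrays a group. The comparison also contrasts arrays of both sets described above, and with these sets as a block 0 of the 7 genes were called and Srebf2 was at -0.59 (adjusted p = 0.2744). For the difference between thrombin and TRAP, 0 of 7 were called, against 0.532% of all probe sets.

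Across the 12 arrays, after the mean of each experiment was taken out, the 7 genes did not follow 1 pattern. Sqle (r = 0.91), Idi1 (0.88), Msmo1 (0.81) and Insig1 (0.79) ran close to the mean of the 7 standardised profiles, Srebf2 (0.58) and Fdps (0.30) less so, and Dhcr7 ran against it (-0.32). Each of the 7 genes is itself part of this mean, which raises these r by construction. Insig1 and Idi1 correlated with r = 0.80, and Insig1 and Dhcr7 with r = -0.76. The points are 12 arrays that share stimuli and scaling, so these are descriptions without a test. Among 9860 genes outside the cholesterol and fatty acid lists, those with profiles most like the mean were Alyref (r = 0.96), Kidins220 (0.94), Plin2 (0.94), Tln1 (0.92), Arhgap42 (0.92), Por (0.91), Glud1 (0.91) and Gprc5a (0.91). ALYREF is an mRNA export factor, PLIN2 coats lipid droplets, TLN1 links integrins to actin and POR passes electrons to cytochrome P450 enzymes. Of these 8 genes Gprc5a passed the test with thrombin (1.08, adjusted p = 0.009346), and the other 7 had log2 differences of 0.13 to 0.34 with thrombin that did not pass.

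Other genes of cholesterol and fatty acid metabolism, taken from lists by role, set these responses in context. Among the further synthesis genes 14 were tested. None of the 14 was called with thrombin, against 4.74% of all probe sets. With TRAP 2 fell, Mvk by 0.56 ± 0.15 (adjusted p = 0.04987) and Fdft1 by 0.39 (adjusted p = 0.03325), against 2.07% of probe sets called lower. MVK phosphorylates mevalonate and FDFT1 makes squalene. Both TRAP calls were often lost, with Mvk called in 7 and Fdft1 in 14 of the 28 alternative fits, and neither passed without the 2 crossing arrays (adjusted p = 0.1915 and 0.06751).

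In the average 4 of the 14 synthesis genes fell and 0 rose: Mvk by 0.30, Pmvk by 0.29, Mvd by 0.26 and Fdft1 by 0.22 on the log2 scale (adjusted p from 0.008388 to 0.03247), against 7.62% of all probe sets called lower and 5.55% higher. Without the 2 crossing arrays Pmvk did not pass (adjusted p = 0.05657). A second probe set of Mvk passed too (-0.35, adjusted p = 0.0298), and one of Fdft1 did not (-0.22, adjusted p = 0.05714). MVK, PMVK and MVD are the consecutive enzymes from mevalonate to isopentenyl diphosphate, just before the step of IDI1. With each array centred on its median 0 of the 14 were called, and with centring on the median of the probe sets tested 1 was. The median of the 14 average differences was -0.06, near that of all probe sets at -0.04.

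**Figure D3:**
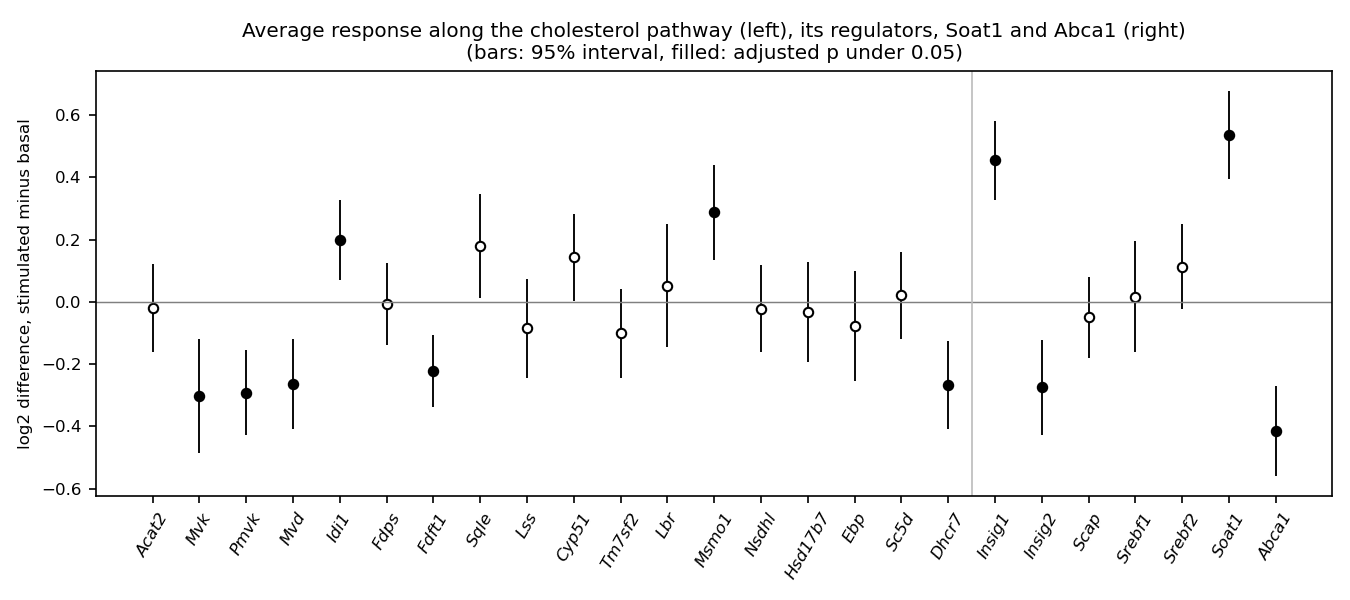
Average difference between stimulated and basal cells (log2 of the signal plus 16, with 95% intervals) for synthesis genes in the order of the pathway, left of the line, and for regulators, Soat1 and Abca1 on the right. Idi1, Msmo1, Insig1 and Soat1 were called higher, while Mvk, Pmvk, Mvd, Fdft1, Dhcr7, Insig2 and Abca1 were called lower.

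Among genes that control SREBP or lipoprotein uptake, 6 were tested. Srebf1 and Scap were not called in any comparison. Insig2, the relative of Insig1, fell by 0.27 in the average (adjusted p = 0.0211), held in 16 of 27 alternative fits but not without the 2 crossing arrays (adjusted p = 0.1081), and a second probe set gave -0.23 (adjusted p = 0.1289). Mylip, a ubiquitin ligase that limits lipoprotein uptake, fell with thrombin by 0.74 ± 0.13 (adjusted p = 0.004472), and its differences with TRAP (-0.09, adjusted p = 0.8219) and after PTX and TRAP (-0.07, adjusted p = 0.8455) did not pass. The test of the difference between thrombin and TRAP gave -0.66 (adjusted p = 0.1698). The resting level of Mylip in the thrombin experiment was itself above that of the TRAP experiment by 1.28, and against all 6 basal arrays the thrombin difference was 0.07 (adjusted p = 0.9088). Its average fall of 0.30 (adjusted p = 0.01867) did not pass without the 2 crossing arrays (adjusted p = 0.06253).

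Among uptake and transport genes 8 were tested. Soat1, which esterifies cholesterol for storage, was the 1 gene called by its brightest probe set. It rose by 0.45, 0.61 and 0.56 in the 3 experiments and by 0.54 ± 0.07 in the average (adjusted p = 0.0001228). Of all probe sets 2.63%, 1.84% and 1.68% were called higher in the 3 experiments and 5.55% in the average. The thrombin call of Soat1 held in 14 of 28 alternative fits. Without the 2 crossing arrays its rise after PTX and TRAP did not pass (0.43, adjusted p = 0.1885). A dimmer probe set of Vldlr (-0.18, adjusted p = 0.0324) and one of Stard4 (-0.30, adjusted p = 0.04608) passed as lower in the average. The other tested probe sets of these genes did not pass there. A second Soat1 probe set, with a mean signal of 248.4, gave -0.40, 0.15 and -0.35 and an average of -0.20 (adjusted p = 0.3648). None of these differences passed, so no direction was resolved with it. The calls of a rise in Soat1 thus rest on the brightest probe set alone. Of 5 genes of cholesterol efflux 2 were tested. Abca1, the exporter that loads cholesterol onto apolipoproteins, fell by 0.57 with TRAP (adjusted p = 0.01374), by 0.53 after PTX and TRAP (adjusted p = 0.03061) and by 0.42 in the average (adjusted p = 0.0012), the last in 27 of 27 alternative fits. The TRAP call held in 22 and the PTX call in 15 of 28 alternative fits, and both were lost without the 2 crossing arrays (-0.45, adjusted p = 0.09679, and -0.42, adjusted p = 0.1799). Its thrombin difference of -0.15 did not pass. The 3 dimmer Abca1 probe sets had averages of -0.54, -0.27 and -0.19, of which the first passed (adjusted p = 0.002981).

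Resting levels of these genes also differed between experiments. Basal cells of the thrombin experiment had more Insig1 than those of the TRAP experiment, by 0.64 ± 0.10 (adjusted p = 0.000243), and less Msmo1 (-0.56, adjusted p = 0.00251), Dhcr7 (-0.55, adjusted p = 0.001603), Fdps (-0.51, adjusted p = 0.001669) and Sqle (-0.40, adjusted p = 0.02704). Idi1 (-0.23, adjusted p = 0.09202) and Srebf2 (0.20, adjusted p = 0.1671) did not pass, although the dimmer Idi1 probe set did (-1.12, adjusted p = 9.022e-05). The Sqle call was lost with any 1 of the 4 basal arrays compared left out. Thus 1 of 7 was higher and 4 were lower, in a comparison that called 40.7% of all probe sets, 18.5% higher and 22.2% lower. Ranked by group mean, Insig1 was highest after thrombin (4445.9) and second in the basal cells of that experiment (3142.8), and every neighbouring pair of groups in its order was apart but the stimulated groups of the PTX and TRAP experiments. Dhcr7 was highest in basal TRAP cells (672.8) and lowest in the basal (454.3) and stimulated (365.3) cells of the thrombin experiment, each apart from its neighbour at that lower end.

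The other synthesis genes shared the lower resting level. Of the 14 tested 12 were lower in the thrombin experiment and 0 higher, with a median of -0.67 against -0.01 for all probe sets. Tm7sf2, a sterol reductase, was lower by 1.38, Pmvk by 1.24, Mvd by 1.07 and the demethylase gene Cyp51 by 0.97 (log2, adjusted p from 9.672e-07 to 1.771e-05). The lower count was 10 to 12 when single arrays were left out, 11 with centring on the median of the probe sets tested and 10 with the mean of a gene's probe sets. Centring on the median of all probe sets moved the median of the tested ones from -0.01 to 0.18. There 8 of the 14 remained lower, and of the 7 members 3 were called, Insig1 and Srebf2 higher and Dhcr7 lower. With this centring 5324 of all probe sets were called higher and 2671 lower, against 3452 and 4132 without it. Of the 8 uptake and transport genes 4 were higher (Npc2, Lipa, Stard4 and Soat1) and 1 was lower (Vldlr), against the 18.5% and 22.2% of all probe sets given above. Both efflux genes tested were called. Nr1h2, which encodes the oxysterol receptor LXR beta, was higher by 0.53 (adjusted p = 0.001022, 26 of 26 alternative fits), and Abca1 was lower (-0.45, adjusted p = 0.007628, 24 of 26).

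Markers of cell types and of cell division differed between these experiments too. The summed signal of smooth muscle markers was 19848.9 to 22777.8 in basal cells of the thrombin experiment and 29081.6 to 33480.3 in those of the TRAP experiment, that of 7 fibroblast markers 7015 to 7412.3 and 10174.7 to 10894.2, and that of 3 cell division markers 1117.5 to 1156.2 and 2739.3 to 2939.4. That of 7 leukocyte markers was 592.3 to 674.6 and 365.6 to 365.8, mostly from Cd14, while the pan-leukocyte gene Ptprc read 0.4 to 12 and the endothelial gene Pecam1 0.7 to 7.5 over the 12 arrays. The part of these differences in the resting levels of cholesterol genes was not tested, and the experiment and the preparation of cells cannot be told apart.

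**Figure D4:**
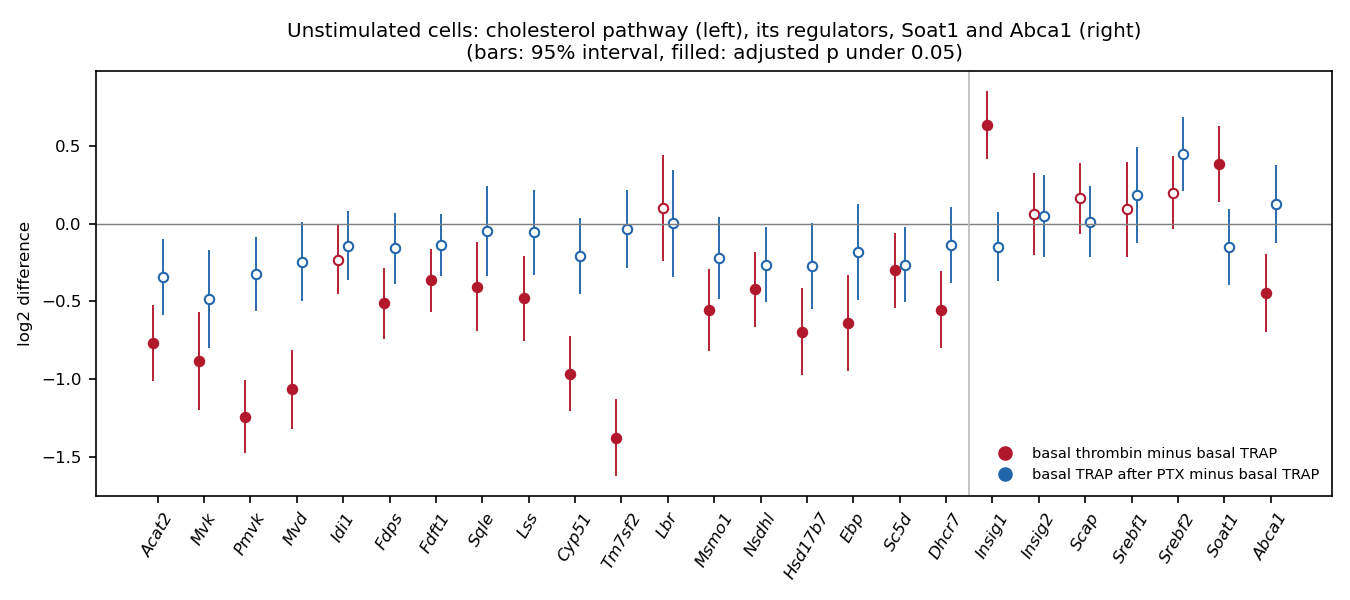
Differences in resting level (log2 of the signal plus 16, with 95% intervals) of the thrombin experiment and of the PTX experiment, each from the TRAP experiment, for the synthesis genes in pathway order and, right of the line, for regulators, Soat1 and Abca1. In the thrombin experiment most synthesis genes lay below 0, down to -1.38 for Tm7sf2, and Insig1 lay above at 0.64, while none of the genes drawn was called in the PTX experiment.

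Between basal cells of the PTX and the TRAP experiments 0 of the 7 genes were called, against 0.043% of all probe sets. By the brightest probe sets Srebf2 had the largest difference, 725.3 and 826.1 against 572.3 and 554.8, which is 0.45 ± 0.11 (unadjusted p = 0.001233, adjusted p = 0.1415). The dimmer Idi1 probe set differed by more, -0.67 ± 0.16, and did not pass either (adjusted p = 0.1299). By their brightest probe sets the remaining 6 members had values of -0.22 to -0.05 there. Of the 14 other synthesis genes 13 lay below 0, where 50.5% of all probe sets did, with a median of -0.25 against -0.0028 for all probe sets. Both comparisons of resting cells share the basal arrays of the TRAP experiment. The basal groups of the PTX and TRAP experiments belong to different sets of arrays, so set and experiment cannot be told apart in this comparison.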

How the data were processed

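Biotin-labelled RNA of the 12 samples was read on Affymetrix arrays with 31099 probe sets and 1 colour. The authors deposited intensity values, linear, and used GCOS 1.4 per the submitters' processing notes. A mean of 198.9 to 199.9 per array without the extreme 2% shows scaling per array. Background steps and a genome build are not given in the sources used here.

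From these deposited values log2(signal + 16) was computed, a scale on which changes of dim genes come out too small. After 57 control probe sets were removed, 18625 probe sets passed a filter at the 40th percentile of the mean over all arrays. Genes are named where the annotation lists 1 symbol, and the brightest kept probe set stands for a gene. All 6 groups of 2 arrays, taken from the labels, were fitted in limma 3.58.1 (R 4.3.3, lmFit and eBayes with an intensity trend, 6 residual and 7.5 prior degrees of freedom). P-values are 2-sided and were adjusted by Benjamini and Hochberg over every kept probe set, with a threshold of 0.05. Precision is limited by the number of arrays, and a response had a standard error of 0.16 (log2) at the median. A fit was tested on simulated data with known changes.

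The members and lists were chosen with earlier results of these data known. Named are all members, list genes past the threshold in any comparison or described by count, and the 8 genes most like the members' mean profile. Replicate numbers were not used as pairs in the main fit. Deviations of basal and stimulated arrays with the same number correlated with r of 0.13 in the thrombin, 0.10 in the TRAP and 0.02 in the PTX experiment. These r had no reference value to be set against, so they cannot exclude pairing. The alternatives changed the pseudocount, the filter, the scaling or the trend, or used array weights, replicate blocks, fits of only the groups compared, a control of all 6 basal arrays, the mean of a gene's probe sets and each array left out. Leaving out the 2 crossing arrays, a block for the sets, and centring on the kept probe sets were chosen after seeing the data. Some listed genes are not reported here.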

Additional observations from a re-analysis of the deposited data

How the results depend on the processing

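For the thrombin response 2 members were called, and 1 with arrays centred on their median, without an intensity trend, with the compared arrays alone or with all 6 basal arrays as control, and 0 to 2 with single arrays left out. After PTX and TRAP 1 was called, and 0 with all 6 basal arrays as control or without the 2 crossing arrays, and 0 to 1 with single arrays left out. In the average 4 were called, 2 without the crossing arrays, and 1 to 5 with single arrays left out. For thrombin minus TRAP 0 were called, 1 after quantile normalization, and 0 to 1 with single arrays left out. In the average Idi1 also lost its call without the filter on low signal, with quantile normalization or without an intensity trend. Dhcr7 lost its average call with arrays centred on their median or on that of the probe sets tested. Between the basal cells of the thrombin and TRAP experiments 5 were called, and 3 with arrays centred on their median. Sqle lost its call there without an intensity trend (adjusted p = 0.06443) and with centring on the probe sets tested (adjusted p = 0.0626) too. No called difference of a member changed direction in these fits, and 40 of 322 such values lost the call. Of 1197 values of members that were not called 6 gained a call, among them Idi1 with the mean of a gene's probe sets, with thrombin (0.43, adjusted p = 0.04883, then 3 members called) and between these basal cells (-0.67, adjusted p = 0.0006747, then 6 members called). Of 1305 called values of other listed genes, 183 lost the call. The thrombin response of Mylip turned to 0.0741 against all 6 basal arrays. With the replicate number as a block, 2 members were called with thrombin and 3 in the average, where Idi1 was lost, and it changed no other member's call.

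Counts over all probe sets moved with single arrays left out, from 882 to between 342 and 918 for thrombin, from 727 to between 208 and 759 for TRAP, from 505 to between 149 and 539 after PTX and TRAP, and from 2453 to between 1628 and 2354 in the average. Scaling moved their split: the share of calls that were higher went from 55.6% to 61.3% for thrombin, from 47% to 67.3% for TRAP, from 62% to 81.6% after PTX and TRAP, from 42.2% to 66.9% in the average and from 45.5% to 66.6% between these basal groups with arrays centred on their median, and to 70%, 62.3%, 76.4%, 64.7% and 52.5% with centring on the probe sets tested. The cause of these shifts was not tested. Where 1 array was left in a group, its spread was taken to be that of the rest. With 2 arrays a group, differences of the size of Sqle or Srebf2 were not resolved.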

Other observations

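Genes of fatty acid synthesis that SREBP-1 regulates were listed beside the cholesterol genes, and 9 of 9 were tested. With thrombin 0 of 9 were called, against 4.74% of all probe sets. With TRAP 2 fell, the elongase gene Elovl6 by 0.59 on the log2 scale (limma, adjusted p = 0.02511) and Acss2, which makes acetyl-CoA from acetate, by 0.53 (adjusted p = 0.02853), against 2.07% of all probe sets called lower, and both were lost without the 2 crossing arrays (adjusted p = 0.1473 and 0.1417). In the average 3 fell, Elovl6 by 0.34, the desaturase gene Fads1 by 0.27 and Acss2 by 0.27 (adjusted p from 0.01067 to 0.02269), against 7.62% of all probe sets called lower. With arrays centred on their median none of these 3 average calls held. Fasn, the fatty acid synthase gene, was at 0.07 in the average (adjusted p = 0.5158).

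Resting levels of the 9 fatty acid genes were also lower in the thrombin than in the TRAP experiment, with 8 of 9 called lower, against 22.2% of all probe sets, and a median of -0.74. Fasn was lower by 1.14 (adjusted p = 2.738e-06) and Scd, the stearoyl-CoA desaturase gene, by 0.92 (adjusted p = 0.00273), calls that held in 26 of 26 alternative fits each.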
